A study of Homo sapiens with 6 samples.

Results

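The genes described here encode the proteasome: its subunits, its activator caps and its assembly chaperones. They were taken from the table of gene counts as every row whose symbol is PSMA, PSMB, PSMC, PSMD, PSME or PSMG followed only by digits, which gave 47 of 37822 rows. RNA was sequenced from Huh7, a cell line grown from a human hepatocellular carcinoma. Cells given lentivirus for VPS72 overexpression (VPS72, 3 libraries) were set against cells given a FLAG control lentivirus (FLAG, 3 libraries), which the labels list as wild type. VPS72 encodes a chaperone of the histone variant H2A.Z and works within chromatin-remodelling and acetyltransferase complexes. Both groups carried virus packaged in HEK293T cells with the psPAX2 and pMD2.G plasmids, and both were exposed to it for 24 h. Which promoter drives the transgene is not given here. Nor do the labels state that replicates were separate cultures, so every p below reflects only how far these libraries spread, which may be technical.

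The proteasome is the main machine by which cells degrade proteins tagged with ubiquitin. Its core particle is a barrel of stacked rings: outer rings of alpha subunits (PSMA genes), which gate the entry, and inner rings of beta subunits (PSMB genes), some of which hold the cutting sites. The regulatory particle binds the ends of the barrel. Its base carries a ring of ATPases (PSMC genes) that unfold the substrate, and other subunits (some PSMD genes), among them a ubiquitin receptor. Its lid (other PSMD genes) removes ubiquitin. Other caps (PSME genes) open the barrel in different settings, and PSMG genes with a few PSMD genes encode chaperones that help build the particles. Interferon induces PSMB8, PSMB9 and PSMB10, which replace the standard cutting subunits in the immunoproteasome and favour peptides for antigen presentation. When proteasome capacity is low, the transcription factor NRF1 (gene NFE2L1) raises subunit genes together, acting with small MAF proteins on antioxidant response elements.

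Sequence elements shared by the promoters of subunit genes are a known route of their joint regulation. RefSeq (GRCh38.p14) held a promoter window for 41 of the 47 genes, 49 windows in all, each running from 250 bases before to 50 bases after a transcription start. It held none for PSMA7, PSMB1, PSMB6, PSMB7, PSMD4 and PSMG3. Every window was searched on both strands for CCAAT, the box bound by NF-Y, and for TGACNNNGC, the core of the antioxidant response element. These letters do not overlap as motifs, and a match is a description and not a binding site. The 250 bases before the start are shown 5′ to 3′ on the gene's strand for PSMB2 and PSMD12, the genes with the smallest p in the core and regulatory particles, and for the immunoproteasome gene PSMB9. Capitals mark motif letters.
PSMB2: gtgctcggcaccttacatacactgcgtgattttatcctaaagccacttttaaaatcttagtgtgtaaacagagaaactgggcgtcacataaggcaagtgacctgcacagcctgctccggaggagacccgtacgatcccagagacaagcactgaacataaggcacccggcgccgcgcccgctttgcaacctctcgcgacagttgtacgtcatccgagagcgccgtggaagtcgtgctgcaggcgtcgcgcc
PSMD12: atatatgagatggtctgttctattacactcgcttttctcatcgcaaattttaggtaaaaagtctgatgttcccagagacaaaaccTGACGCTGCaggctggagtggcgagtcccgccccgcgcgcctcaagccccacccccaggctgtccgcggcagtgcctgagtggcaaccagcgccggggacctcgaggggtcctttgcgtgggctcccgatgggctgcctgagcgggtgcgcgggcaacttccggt
PSMB9: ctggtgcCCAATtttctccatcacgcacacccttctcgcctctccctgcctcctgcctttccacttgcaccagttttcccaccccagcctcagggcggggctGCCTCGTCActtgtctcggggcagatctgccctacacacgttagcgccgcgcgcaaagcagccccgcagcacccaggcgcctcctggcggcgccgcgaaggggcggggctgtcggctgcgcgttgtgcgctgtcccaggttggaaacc
The PSMB2 stretch is chr1:35641527-35641776 on the minus strand and holds neither motif, while the whole window has a CCAAT match that lies at least partly after the start. The PSMD12 stretch is chr17:67366578-67366827 on the minus strand and holds 1 TGACNNNGC match on the strand shown. The PSMB9 stretch is chr6:32853942-32854191 on the plus strand, with 1 CCAAT match on that strand and 1 TGACNNNGC match on the other. TGACNNNGC was found in 15 of the 49 windows (30.6%), against 13.3% of all 35116 windows in the table. CCAAT was found in 20 of the 49 (40.8%), against 34.6% of all windows.

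The deposited estimated counts summed to 23969324 to 29091824 per VPS72 library and to 21345279 to 25352335 per FLAG library. Levels below are CPM (counts scaled to a common library total) after scaling by trimmed mean of M-values (TMM), except where a length scale is named. VPS72 itself averaged 1161 CPM in VPS72 cells and 24.0 CPM in FLAG cells, a log2 fold change of 5.60 ± 0.06 (SE, edgeR's quasi-likelihood test, Benjamini-Hochberg adjusted p = 1.85e-18). Throughout, ± gives the SE of a log2 fold change and the SD of a mean over 3 libraries. Of 8 hepatocyte marker genes 7 were called higher by that test at an adjusted p below 0.05, against 0.421% of all tested genes. Their log2 fold changes, over all 8, ran from 0.14 to 0.335. The list summed to between 21302 and 22147 CPM in VPS72 libraries, against 18865 to 19677 CPM in FLAG libraries. The immune markers PTPRC, CD3E, CD14, CD68 and LYZ summed to between 13.6 and 14.4 CPM in VPS72 libraries and between 10.8 and 12.5 CPM in FLAG libraries. LYZ made up 86.3% to 98.1% of that sum and did not overlap between groups (edgeR unadjusted p = 0.0329, adjusted p = 0.3705). It was higher in VPS72 libraries, an order that 8.76% of all tested genes had. PTPRC had at most 1 count in any library. Fibroblast markers stood at 10.1 to 10.6 CPM in VPS72 libraries and 9.91 to 11.3 CPM in FLAG libraries, and endothelial markers at 4.13 to 4.94 CPM in VPS72 libraries and 2.79 to 4.55 CPM in FLAG libraries. Markers chosen for the packaging cells stayed between 0.0845 and 0.341 CPM in VPS72 libraries and between 0.0785 and 0.326 CPM in FLAG libraries, with NEFL, NEFM and PAX2 at 3 counts or fewer in every library. The part of any of these lists in the results below was not tested. In bulk RNA, a different share of expressing cells and a different level per cell cannot be told apart.

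Of the 47 genes, 43 passed the low-count filter, and none was called higher or lower in VPS72 cells at an adjusted p below 0.05. Over all 14253 tested genes the same call was made for 0.617%, of which 0.421% were higher and 0.196% lower. At an unadjusted p below 0.05, 5 of the 43 genes (11.6%) stood out, against 11.5% of all tested genes. All 5 were higher in VPS72 cells: PSMB2, PSMA7, PSMB4, PSMD12 and PSMB5. In the direction higher the background at this p was 6.03% of all tested genes, and in the direction lower it was 5.51%. DESeq2 called 1 gene of the family higher, PSMB2, as it did 3.49% of the 5637 genes to which it gave an adjusted p, and none lower, against 1.01%. Some proteasome genes got no adjusted p from DESeq2 and could not be called by it, among them PSMB10, PSMA6 and PSMD9, which had the lowest log2 fold changes. With limma-voom no proteasome gene was called higher, against 0.645% of all tested genes, and none lower, against 0.253%.

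The differences were small on the scale of log2 fold change (VPS72 over FLAG). Their median was 0.03 over the 43 genes and -0.00 over all tested genes. It was positive in 30 genes and negative in 13, whereas 48.8% of all tested genes were positive. Of the 8956 genes between 9.06 and 356 CPM, the range of the tested family without PSMB10, 52.0% were positive. The split of the family depends on the scaling, and so does the median of all tested genes. With library totals in place of TMM, 20 of the 43 were positive, and the median was -0.00 for the family and -0.04 for all tested genes. The median was 0.04 for the core particle, 0.01 for the regulatory particle, -0.01 for the activators and 0.05 for the assembly factors. These group medians moved with the setting. With library totals they were 0.01 for the core particle, -0.02 for the regulatory particle, -0.04 for the activators and 0.01 for the assembly factors. Without VPS72 replicate 1 the regulatory particle gave -0.01 and the assembly factors 0.0095. The regulatory particle gave 0.04 without VPS72 replicate 3, and the core particle gave 0.08 without FLAG replicate 2. For 38 of the 43 genes the whole 95% interval lay within 0.3 log2 units of no difference, as it did for 49.8% of all tested genes. At the narrower bound of 0.2 this held for 24 of 43 genes and 29.1% of all tested genes. The median level was 83.1 CPM in the family, against 21.3 CPM over all tested genes. The median coefficient of variation between replicates was 3.67% in VPS72 libraries and 3.51% in FLAG libraries. The 8956 genes between 9.06 and 356 CPM had a lower median level, 43.0 CPM, so they are not matched to the family in level. Their median coefficient of variation was 4.75% in VPS72 libraries and 5.06% in FLAG libraries.

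**Figure D1:**
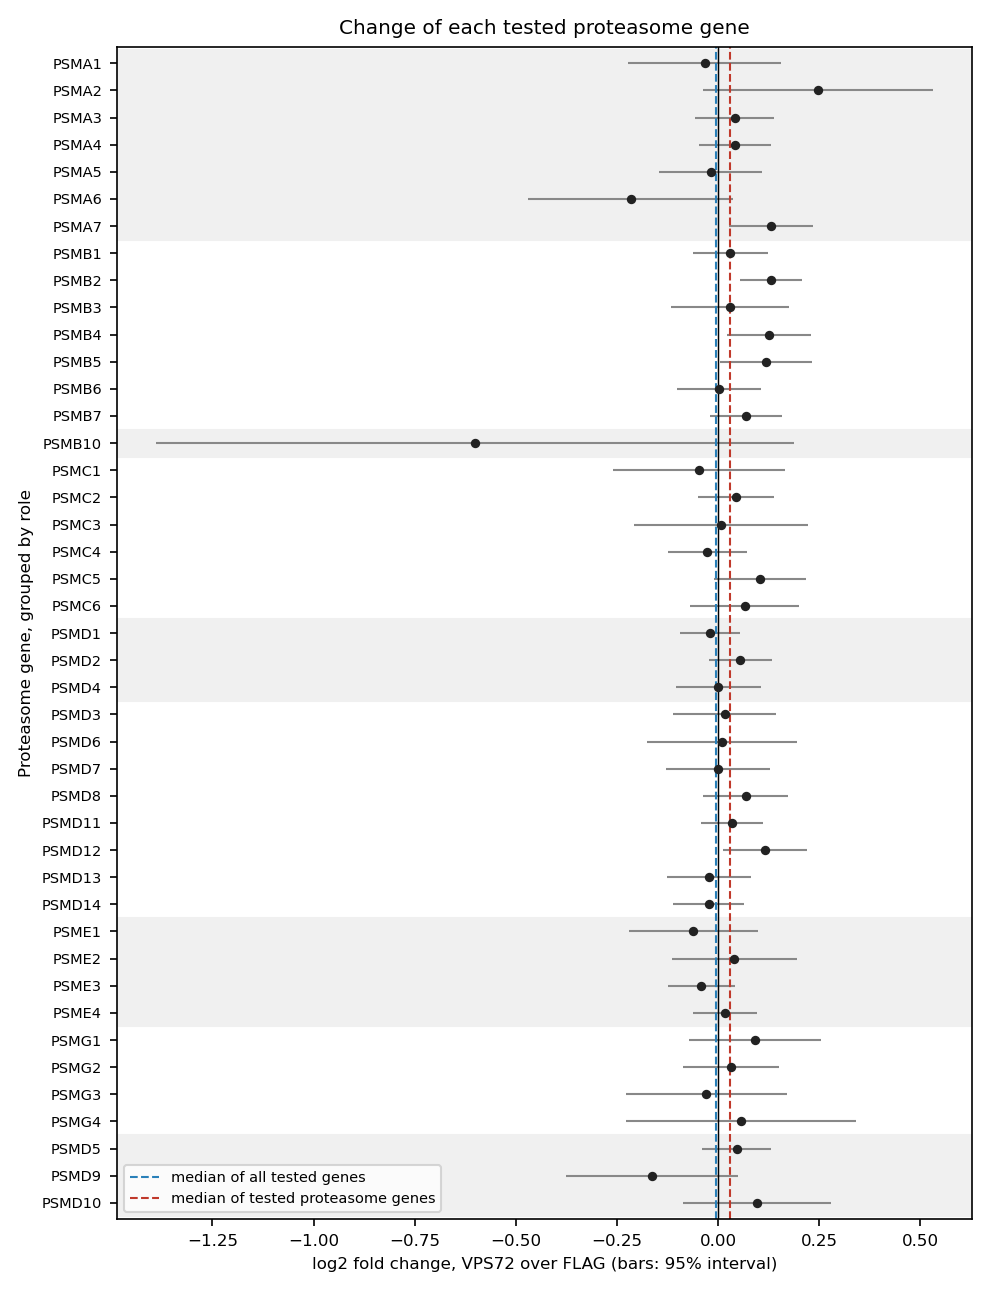
Log2 fold change (VPS72 over FLAG) of each tested proteasome gene, with its 95% interval as a bar, grouped by role. Dashed lines mark the medians of the proteasome genes and of all tested genes. Most intervals cross 0, and PSMB10 has the widest, from -1.39 to 0.19.

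The 5 genes with VPS72 libraries all above FLAG libraries were PSMA7, PSMB2, PSMD12, PSMD5 and PSMG1, where 8.76% of all tested genes had that order. The 2 genes with VPS72 libraries all below were PSMA6 and PSMD9, where the background was 8.47%. With library totals in place of TMM, PSMB2 alone was higher without overlap, where the background was 5.06% of all tested genes. PSMA6, PSMD9 and PSME3 were then lower without overlap, where the background was 12.3%. VPS72 replicate 1 was the highest of its group in 21 of the 43 genes and replicate 3 the lowest in 19. The median log2 deviation of the family from the FLAG mean was 0.07, 0.02 and 0.00 in VPS72 replicates 1, 2 and 3, against -0.02, 0.02 and -0.01 in FLAG replicates 1, 2 and 3. The VPS72 libraries differed among themselves by more than the groups did, and the median of the family without VPS72 replicate 1 was 0.01.

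**Figure D2:**
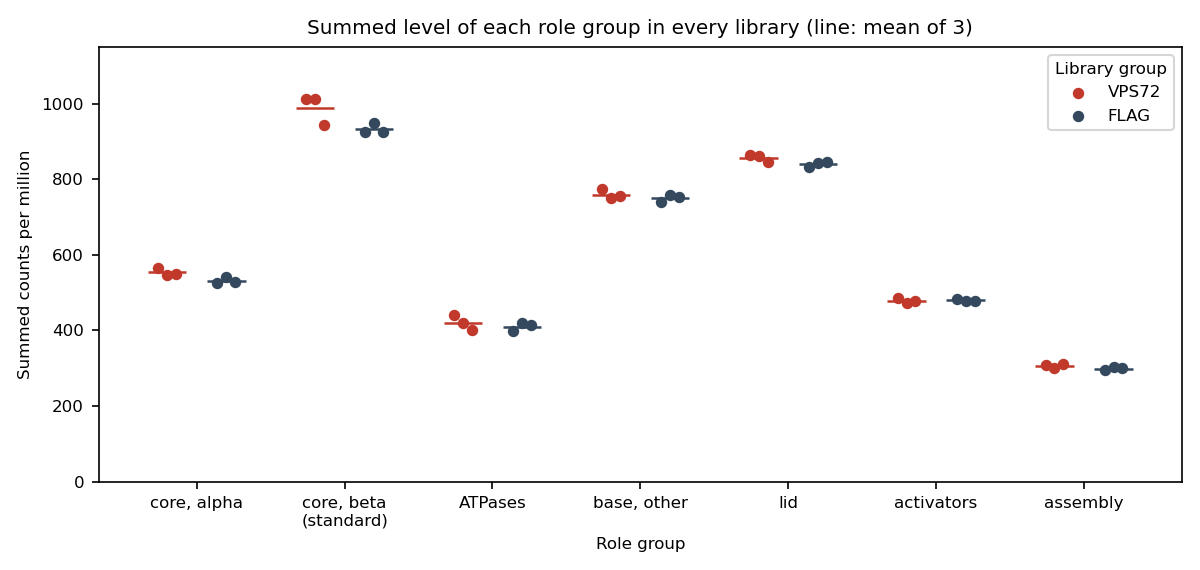
Summed CPM of each role group, 1 point per library and a line at the mean of 3, VPS72 left of FLAG. The alpha ring sums to 546 to 565 CPM in VPS72 libraries, against 527 to 543 CPM in FLAG libraries, and the other roles overlap.

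Among the alpha subunits, which form the gate of the barrel, 7 of 8 genes were tested and the median log2 fold change was 0.04. Summed over the ring, they stood at 565, 546 and 550.1 CPM in VPS72 replicates 1 to 3 and at 527, 543 and 527 CPM in FLAG replicates 1 to 3. The VPS72 sums were all above the FLAG sums, by 4.03% on average, but overlapped them when scaled by library totals, where the difference was 1.80%. PSMA7 had 158, 164 and 152 CPM in VPS72 libraries and 136, 152 and 145 CPM in FLAG libraries. The lowest VPS72 value and the highest FLAG value are equal at this rounding and do not overlap before it, and the log2 fold change was 0.13 ± 0.05 (edgeR's quasi-likelihood adjusted p = 0.289). PSMA4, the alpha gene with the highest CPM, averaged 193 ± 7.09 CPM in VPS72 cells and 187 ± 5.23 CPM in FLAG cells (SD, n = 3 each).

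PSMA6 and PSMA2 had the largest differences of the ring, in opposite directions and at low counts. PSMA6 had 8.34, 8.45 and 8.78 CPM in VPS72 libraries and 10.1, 10.1 and 9.49 CPM in FLAG libraries. All of its VPS72 values lay below all of its FLAG values, with a log2 fold change of -0.22 (95% interval -0.47 to 0.04, edgeR adjusted p = 0.522). PSMA2 had 15.7, 11.2 and 15.5 CPM in VPS72 libraries and 12.4, 10.8 and 12.5 CPM in FLAG libraries. Its VPS72 replicate 2 fell inside the FLAG range, and its log2 fold change was 0.25 (95% interval -0.04 to 0.53, edgeR adjusted p = 0.511). PSMA1, PSMA3 and PSMA5 had log2 fold changes between -0.03 and 0.04. PSMA8, a paralog that takes the place of PSMA7 in germ cells, had 0 counts in all 6 libraries.

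The standard beta subunits, PSMB1 to PSMB7, leaned the same way. All 7 had a positive log2 fold change, as 6 had with upper quartile scaling and 4 with library totals. The median was 0.07 and the range 0.00 to 0.13, and 3 of them had an unadjusted p below 0.05, against 11.5% of all tested genes in either direction and 6.03% in the direction higher. None was called after adjustment. They summed to 1013, 1012 and 944 CPM in VPS72 libraries and to 924, 948 and 925 CPM in FLAG libraries. VPS72 replicate 3 lay inside the FLAG range, so the groups overlapped, and the VPS72 mean was 6.11% above the FLAG mean. With the alpha ring added, the core particle genes other than the inducible ones summed to 1578, 1558 and 1494 CPM in VPS72 libraries and to 1451, 1491 and 1453 CPM in FLAG libraries. These sums did not overlap and differed by 5.36%, against 1.77% for the regulatory particle. With library totals they overlapped, and the differences were 3.09% and -0.421%.

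PSMB2, a structural subunit of the inner ring, had the smallest p of the family. It had 318, 312 and 300.3 CPM in VPS72 libraries and 284, 284 and 281 CPM in FLAG libraries. All VPS72 values lay above all FLAG values. Its log2 fold change was 0.13 ± 0.04 (95% interval 0.05 to 0.21), with an unadjusted p of 0.00228 and an adjusted p of 0.131 by edgeR's quasi-likelihood test. The adjusted p was 0.00812 with DESeq2, and it ranged up to 0.367 when FLAG replicate 1 was left out. PSMB2 also had the highest level of the family per kilobase of coding sequence, 514 CPM in VPS72 cells and 469.5 CPM in FLAG cells. That rank depends on the length used. Per kilobase of whole transcript PSMB2 stood at 115 CPM in VPS72 cells and 105 in FLAG cells, below PSME3 at 171 and 176.

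PSMB4, a structural subunit whose gene lies near VPS72 on chromosome 1, had 117, 112 and 106 CPM in VPS72 libraries and 106, 102 and 98.9 CPM in FLAG libraries. The lowest VPS72 value and the highest FLAG value were nearly equal and crossed, and the log2 fold change was 0.13 ± 0.05 (edgeR adjusted p = 0.312). PSMB1 averaged 134 ± 4.50 CPM in VPS72 cells and 132 ± 3.40 CPM in FLAG cells. PSMB3 varied more, with 118, 127 and 104 CPM in VPS72 libraries and 106, 125 and 112 CPM in FLAG libraries. Neither of these structural subunits separated the groups.

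**Figure D3:**
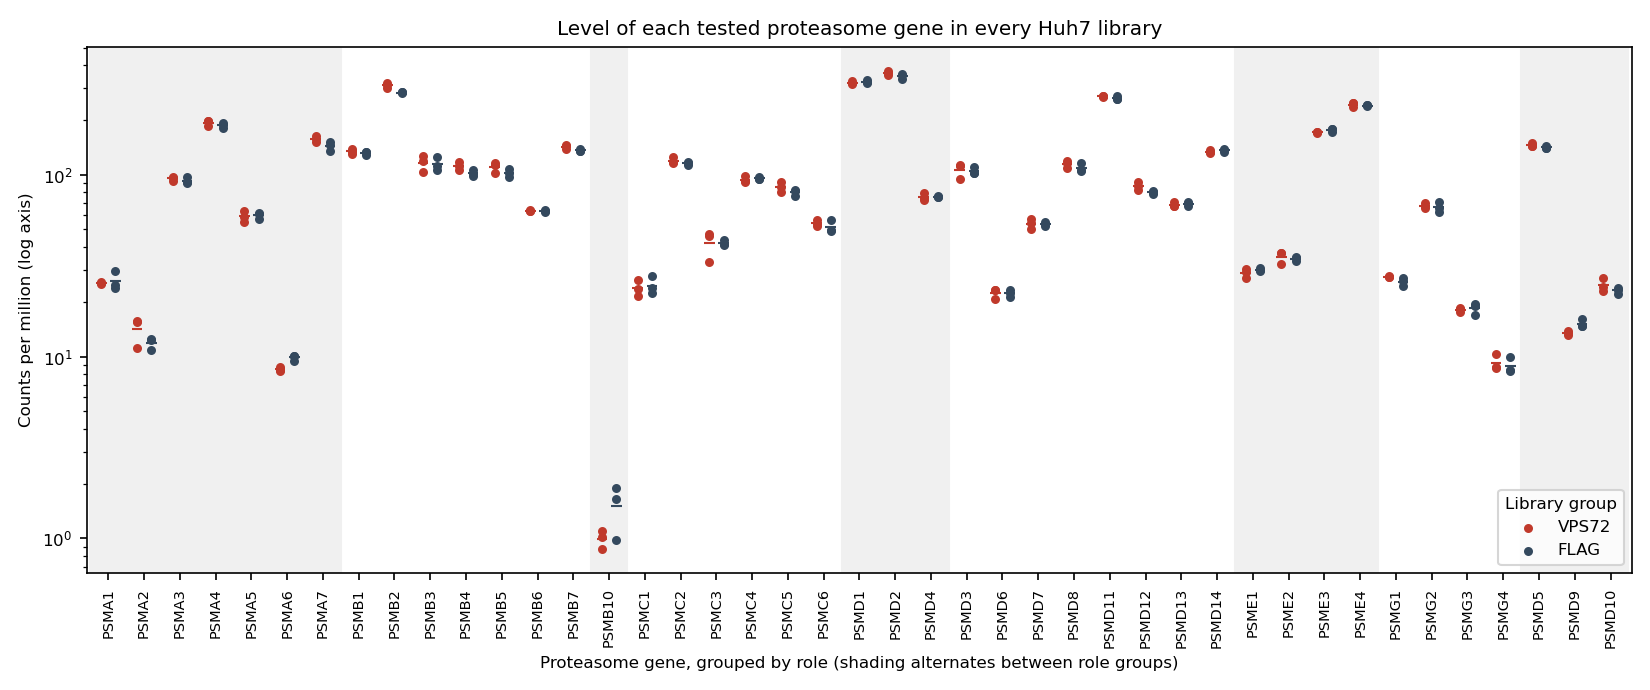
CPM of the 43 tested proteasome genes in each library on a log axis, grouped by role, with VPS72 points left of FLAG points and a dash at each mean. PSMD2 is the highest at 363 CPM in VPS72 cells and 349 CPM in FLAG cells, and the inducible PSMB10 lies far below all others.

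The cutting sites sit on PSMB5, PSMB6 and PSMB7, which carry the chymotrypsin-like, caspase-like and trypsin-like activities. PSMB5 had 114, 116 and 103 CPM in VPS72 libraries and 97.0, 107 and 102 CPM in FLAG libraries. Its groups overlapped, with a log2 fold change of 0.12 ± 0.05 and an adjusted p of 0.405 by edgeR's quasi-likelihood test. PSMB6 had 62.8, 64.1 and 63.4 CPM in VPS72 libraries and 63.5, 64.0 and 62.3 CPM in FLAG libraries. Its 6 values lay within about the same narrow band in both groups, and its log2 fold change of 0.00 had a 95% interval of -0.10 to 0.11. PSMB7 had 144, 146 and 138 CPM in VPS72 libraries and 134, 139 and 135 CPM in FLAG libraries, a log2 fold change of 0.07 ± 0.04 (edgeR adjusted p = 0.564).

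The inducible subunits were at or near the detection limit. PSMB8, the counterpart of PSMB5, had 0, 0 and 1 counts in VPS72 libraries and 1, 2 and 0 counts in FLAG libraries. PSMB9, the counterpart of PSMB6, had 1, 4 and 0 counts in VPS72 libraries and 0 counts in each FLAG library. PSMB11, the thymus-specific subunit, had 0, 1 and 0 counts in VPS72 libraries and 0 counts in each FLAG library. A count of 0 allows up to 3 counts, which is 0.104 to 0.140 CPM in these libraries. A fall in these 3 genes could thus not be detected at this depth, and none of them rose above 4 counts in any library.

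PSMB10, the counterpart of PSMB7, was the only inducible gene to pass the filter. It had 25, 29 and 24 counts in VPS72 libraries and 42, 48 and 21 counts in FLAG libraries. FLAG replicate 3 was at the VPS72 level and FLAG replicates 1 and 2 were above it, so the groups overlapped. The log2 fold change was -0.60 ± 0.37 (95% interval -1.39 to 0.19, edgeR adjusted p = 0.584). Per kilobase of coding sequence, PSMB10 stood at 1.21 CPM in VPS72 cells and 1.83 CPM in FLAG cells.

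As a share of the PSMB7 counts in the same library, PSMB10 counts came to 0.603%, 0.751% and 0.733% in VPS72 libraries and 1.22%, 1.36% and 0.721% in FLAG libraries. The difference in means was -0.404 percentage points (exact permutation test, two-sided, p = 0.3, adjusted over 3 pairs 0.6). The same test gave p = 0.7 for PSMB8 over PSMB5 and p = 0.4 for PSMB9 over PSMB6 (adjusted 0.7 and 0.6, exact). With 3 libraries a group it cannot go below 0.1. PSMB8, PSMB9 and PSMB10 together gave 26 of 9250 counts of all 6 cutting-subunit genes in VPS72 replicate 1, or 0.281% (exact Clopper-Pearson 95% interval 0.184 to 0.412). The shares were 0.382% (0.263 to 0.536) and 0.346% (0.224 to 0.510) in VPS72 replicates 2 and 3. They were 0.565% (0.409 to 0.761), 0.629% (0.468 to 0.829) and 0.325% (0.201 to 0.496) in FLAG replicates 1 to 3. These intervals cover counting error only. Those of FLAG replicates 1 and 3 overlap that of each VPS72 library, and that of FLAG replicate 2 overlaps those of VPS72 replicates 2 and 3. Cutting-subunit transcripts in both groups were thus almost wholly the standard ones.

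**Figure D4:**
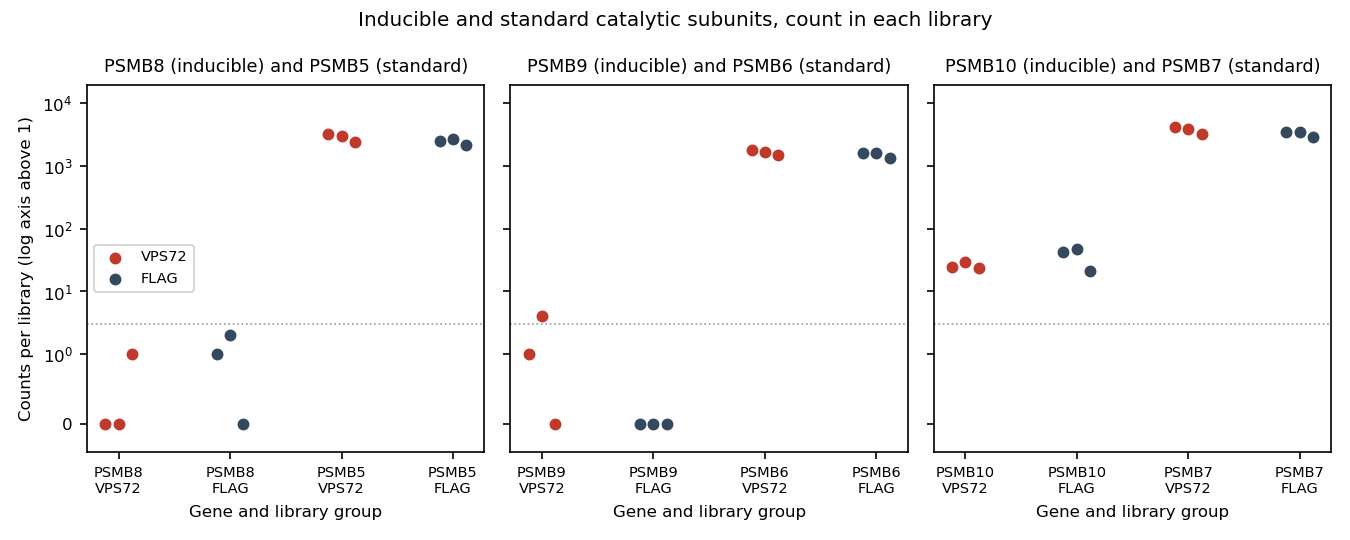
Counts of the standard and inducible cutting subunits by library, on an axis that is logarithmic above 1, VPS72 left of FLAG. The dotted line marks 3 counts. PSMB10 has 24 to 29 counts in VPS72 libraries and 21 to 48 in FLAG libraries, and PSMB8 and PSMB9 have at most 4 in any library.

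In the regulatory particle, all 17 genes taken by symbol were tested. Its ATPases summed to 440, 419 and 400 CPM in VPS72 libraries and to 398, 419 and 414 CPM in FLAG libraries, with overlap. PSMC5 had the smallest p of the ring, with 91.7, 86.1 and 80.5 CPM in VPS72 libraries and 76.9, 80.9 and 82.8 CPM in FLAG libraries. Its VPS72 replicate 3 was within the FLAG range, and its log2 fold change was 0.10 ± 0.05 (edgeR adjusted p = 0.489). PSMC2, the ATPase gene with the highest CPM, averaged 119 ± 4.69 CPM in VPS72 cells and 116 ± 2.04 CPM in FLAG cells. PSMC3 had 46.1, 47.4 and 33.2 CPM in VPS72 libraries and 40.9, 41.6 and 43.9 CPM in FLAG libraries. VPS72 replicate 3 lay below every other library, and the log2 fold change was 0.01 with that library and 0.15 without it. PSMC1, PSMC4 and PSMC6 had log2 fold changes of -0.05, -0.03 and 0.07.

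The remaining base subunits among the genes taken by symbol are the scaffolds PSMD1 and PSMD2 and the ubiquitin receptor PSMD4. PSMD2 had the highest CPM of the family and averaged 363 ± 9.14 CPM in VPS72 cells and 349 ± 9.97 CPM in FLAG cells, with a log2 fold change of 0.06 ± 0.04 (edgeR adjusted p = 0.612). PSMD1 averaged 321 ± 6.93 CPM in VPS72 cells and 326 ± 4.99 CPM in FLAG cells. PSMD4 had 79.8, 74.8 and 72.6 CPM in VPS72 libraries and 76.8, 75.1 and 75.2 CPM in FLAG libraries. Its FLAG values lay inside the VPS72 range, and its log2 fold change was 0.00 (95% interval -0.10 to 0.11). By RefSeq gene order PSMD4 has 1 protein-coding gene between it and VPS72, and PSMB4 has 6. Neither was called.

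The lid genes taken by symbol summed to 865, 862 and 845 CPM in VPS72 libraries and to 833, 843 and 846 CPM in FLAG libraries. PSMD12, a lid scaffold subunit, had 91.4, 82.5 and 87.2 CPM in VPS72 libraries and 78.6, 80.5 and 81.8 CPM in FLAG libraries. Its groups did not overlap, with a log2 fold change of 0.12 ± 0.05, an unadjusted p of 0.0296 and an adjusted p of 0.358 by edgeR's quasi-likelihood test. PSMD11, the lid gene with the highest CPM, averaged 271 ± 1.71 CPM in VPS72 cells and 265 ± 5.09 CPM in FLAG cells. PSMD14, the deubiquitinase that removes the ubiquitin chain as a substrate enters, averaged 134 ± 2.76 CPM in VPS72 cells and 136 ± 2.50 CPM in FLAG cells. Its log2 fold change was -0.02, with a 95% interval of -0.11 to 0.06. The other lid genes taken by symbol, PSMD3, PSMD6, PSMD7, PSMD8 and PSMD13, had log2 fold changes from -0.02 to 0.07.

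The activators summed to 486, 472 and 478 CPM in VPS72 libraries and 485, 479 and 479 CPM in FLAG libraries. With library totals in place of TMM, the VPS72 sums lay below the FLAG sums, with a difference of -2.62% in place of -0.481%. The typical tested gene also sat lower under that scaling, at -0.04 log2 units. Of single tested genes, 12.3% were then lower in VPS72 libraries without overlap, so this order does not set the activators apart. PSME1 and PSME2 encode the interferon-induced cap PA28alpha and PA28beta. PSME1 had 29.1, 30.5 and 27.0 CPM in VPS72 libraries and 29.5, 30.8 and 29.96 CPM in FLAG libraries (log2 fold change -0.06 ± 0.08). PSME2 had 37.1, 36.9 and 32.5 CPM in VPS72 libraries and 35.0, 35.1 and 33.5 CPM in FLAG libraries (0.04 ± 0.07). Unlike PSMB8 and PSMB9, both were well above the detection limit in every library. PSME3, which encodes the nuclear cap PA28gamma, had 172, 169.8 and 171 CPM in VPS72 libraries and 178, 171 and 178 CPM in FLAG libraries (-0.04 ± 0.04). PSME4, which encodes the nuclear activator PA200, had 247, 235 and 247 CPM in VPS72 libraries and 242, 242 and 237 CPM in FLAG libraries (0.02 ± 0.04). All 4 overlapped between groups, with edgeR adjusted p between 0.762 and 0.920.

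The assembly factors summed to 308, 302 and 311 CPM in VPS72 libraries and to 294, 304 and 299.8 CPM in FLAG libraries. PSMG1 and PSMG2 encode a chaperone pair that starts the alpha ring. PSMG1 had 27.3, 27.8 and 27.4 CPM in VPS72 libraries and 24.4, 26.0 and 27.1 CPM in FLAG libraries. The groups did not overlap but lay close, and the log2 fold change was 0.09 ± 0.08 (edgeR adjusted p = 0.725). PSMG2 had 70.2, 65.8 and 66.9 CPM in VPS72 libraries and 62.0, 70.6 and 66.0 CPM in FLAG libraries. PSMG3 had 17.6, 18.4 and 18.2 CPM in VPS72 libraries and 16.9, 19.03 and 19.4 CPM in FLAG libraries. PSMG4 had 10.3, 8.75 and 8.62 CPM in VPS72 libraries and 8.38, 9.93 and 8.33 CPM in FLAG libraries. PSMG3 and PSMG4 encode the second chaperone pair of the alpha ring, and their groups overlapped, as did those of PSMG2.

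The base chaperones, which help the ATPase ring to form, differed in direction. PSMD9 had 13.9, 13.2 and 13.5 CPM in VPS72 libraries and 14.7, 16.0 and 14.7 CPM in FLAG libraries, all lower in VPS72 cells (log2 fold change -0.16 ± 0.10, edgeR adjusted p = 0.580). PSMD5 had 145, 145 and 149.5 CPM in VPS72 libraries and 144, 140.2 and 141 CPM in FLAG libraries, all higher in VPS72 cells but by a small margin (0.05 ± 0.04, edgeR adjusted p = 0.735). PSMD10, which encodes gankyrin, an oncoprotein in liver cancer, averaged 24.7 ± 2.04 CPM in VPS72 cells and 23.1 ± 0.876 CPM in FLAG cells (0.10 ± 0.09, edgeR adjusted p = 0.745).

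Levels between genes were compared per kilobase of coding sequence. Subunits of one ring are needed in equal number, yet their mRNA levels on this scale were not equal. Among the tested alpha genes, PSMA6 stood at 11.6 CPM per kilobase in VPS72 cells and 13.4 in FLAG cells. PSMA2 stood at 20.1 in VPS72 cells and 17.0 in FLAG cells, and PSMA1 at 32.3 in VPS72 cells and 33.0 in FLAG cells. The other 4 ranged from 81.5 in VPS72 cells for PSMA5 to 246 in VPS72 cells for PSMA4. On this scale the low alpha genes were low in both groups. Per kilobase of whole transcript the order changed, with PSMA5 at 15.8 in VPS72 cells and 16.0 in FLAG cells, below PSMA1 at 16.9 in VPS72 cells and 17.3 in FLAG cells.

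Those 3 genes were also the tested alpha genes whose transcripts share sequence with another annotated gene. In GENCODE v29, used here only for lengths and overlaps, 83.5% of the 75-base windows of the PSMA6 transcript, 50.1% of PSMA2 and 45.8% of PSMA1 also occur in another gene, mostly an overlapping protein-coding locus on the same strand. The windows of the other 4 occur in no other annotated gene. Over the whole family, 7 tested genes shared more than 30% of windows. PSMC1 shared 96.3%, mostly with NRDE2 on the opposite strand, and stood at 18.0 CPM per kilobase of coding sequence in VPS72 cells and 18.6 in FLAG cells. PSMD7 shared 43.7%, PSMB10 35.4% and PSMD9 31.5%. The sources used here give neither the authors' annotation nor their use of strand, so how reads of these 7 genes were divided is uncertain, and the part of shared sequence in their levels was not tested. Set against only the length of sequence not shared, which counts all their reads on that stretch, PSMA6 stood at 54.0 CPM per kilobase in VPS72 cells and 62.6 in FLAG cells, above PSMA4 at 44.5 in VPS72 cells and 43.2 in FLAG cells. PSMC1 stood at 147 on that scale in VPS72 cells and 152 in FLAG cells, so the order of the genes depends on the length used. Without these 7 genes the median log2 fold change of the family was 0.04.

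**Figure D5:**
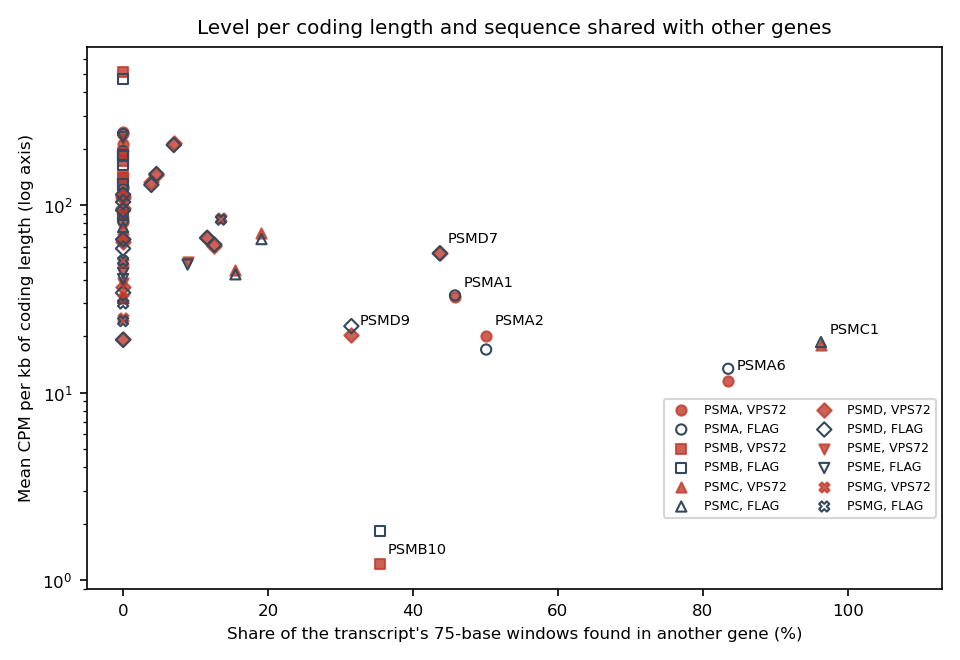
CPM per kilobase of coding sequence (log axis) against the percent of 75-base transcript windows shared with another gene, with filled points for VPS72 means and open points for FLAG means of each tested gene. PSMC1 at 96.3% and PSMA6 at 83.5% are farthest to the right, at 18.0 and 11.6 CPM per kilobase in VPS72 cells and 18.6 and 13.4 in FLAG cells.

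Genes with and without the promoter motifs had similar values. On the log2 fold change scale (VPS72 over FLAG), the 14 tested genes with a TGACNNNGC match had a median of 0.03 and the 23 without had 0.03. The 18 with a CCAAT match had a median of 0.04 and the 19 without had 0.02. These are medians of overlapping ranges, and no test was made between them.

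Genes outside the symbol rule, for other proteins of the proteasome or that work with it, gave no calls either. Of 11 other proteasome genes (among them the maturation factor POMP, receptors, deubiquitinases and inhibitors), 0 of 11 tested were called and the median log2 fold change was -0.02. PAAF1, a factor that binds the ATPases and limits joining of the particles, had 7.89, 8.98 and 8.19 CPM in VPS72 libraries and 11.2, 10.4 and 11.2 CPM in FLAG libraries. All VPS72 values were lower, with a log2 fold change of -0.38 ± 0.12 (edgeR unadjusted p = 0.00603, adjusted p = 0.191). Of all tested genes, 8.47% had that order, and 5.51% were lower at an unadjusted p below 0.05. POMP, the chaperone of the core particle, had 82.1, 82.6 and 73.4 CPM in VPS72 libraries and 74.6, 74.7 and 69.1 CPM in FLAG libraries (0.12 ± 0.06, edgeR adjusted p = 0.4035).

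Of 13 regulators of proteasome gene expression, 0 of 13 were called, with a median log2 fold change of -0.04. MAFG, a small MAF partner of NRF1 and NRF2, had 38.1, 35.0 and 33.2 CPM in VPS72 libraries and 40.7, 44.9 and 41.4 CPM in FLAG libraries. All VPS72 values were lower (log2 fold change -0.25 ± 0.07, edgeR unadjusted p = 0.00285, adjusted p = 0.141). Of all tested genes, 8.47% had that order, and 5.51% were lower at an unadjusted p below 0.05. MAFF, another small MAF, had 5.01, 4.81 and 5.15 CPM in VPS72 libraries and 6.08, 5.73 and 7.07 CPM in FLAG libraries (-0.33 ± 0.16, edgeR adjusted p = 0.438). NFE2L1 had 90.1, 86.8 and 83.5 CPM in VPS72 libraries and 82.0, 88.8 and 85.0 CPM in FLAG libraries, with overlap (0.03 ± 0.05). NFE2L1 was chosen after its values were seen.

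Ubiquitin and delivery genes gave 0 of 14 calls, and all 14 had a positive log2 fold change (9 with library totals), with a median of 0.04 and a range of 0.01 to 0.14. With library totals the median of all tested genes was -0.04. UBA1, the main ubiquitin-activating enzyme, had 258, 279 and 268 CPM in VPS72 libraries and 244, 255 and 245 CPM in FLAG libraries (0.11 ± 0.04, edgeR adjusted p = 0.258). UBB, a polyubiquitin gene, gave 0.14 ± 0.05 (edgeR adjusted p = 0.242). Antigen presentation genes gave 0 of 11 calls, with HLA-B below the filter and a median of 0.10. B2M, the light chain of class I molecules, had 368, 369 and 356 CPM in VPS72 libraries and 338, 337 and 343 CPM in FLAG libraries (0.10 ± 0.03, edgeR adjusted p = 0.234, DESeq2 adjusted p = 0.0436). DESeq2 called 3.49% of the genes to which it gave an adjusted p higher. All VPS72 values of B2M and of UBA1 lay above their FLAG values, an order that 8.76% of all tested genes had. IRF1, an interferon-induced factor that acts on the PSMB9 promoter, had 10.3, 7.58 and 9.59 CPM in VPS72 libraries and 11.4, 11.9 and 11.7 CPM in FLAG libraries. All of its VPS72 values were lower, as in 8.47% of all tested genes (-0.35 ± 0.13, edgeR adjusted p = 0.294). TAP1, named after its values were seen, had 0.452, 0.909 and 1.10 CPM in VPS72 libraries and 0.702, 0.942 and 0.977 CPM in FLAG libraries.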

How the data were processed

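Gene expression was measured by RNA sequencing of 6 libraries, grouped by their titles. The labels name RNAzol for RNA isolation and KAPA RNA HyperPrep for library construction. The authors deposited estimated counts per gene, whole and not normalized. RSEM, STAR and limma and the builds hg19 and hg38 appear in the submitters' processing notes, with no role or order. The sources used here do not give the build and annotation behind the counts, so a gene that shares sequence with another may have gained or lost reads.

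The proteasome genes were read from a fit over the whole table. Genes passed edgeR's (4.0.16, R 4.3.3) filterByExpr with a minimum count of 10, which kept 14253 of 37822 genes and 99.925% of counts. Libraries were scaled by TMM and tested with the quasi-likelihood test, VPS72 over FLAG, with Benjamini-Hochberg adjustment over all tested genes and a threshold of 0.05. Alternatives used other scalings, filters, DESeq2 1.42.0, limma 3.58.1 (voom), a replicate block, removal of trends (mgcv 1.9.3) and leaving out each library. The code was tested on simulated data. Replicate pairs differed beyond sampling noise (chi-square per degree of freedom 4.70 to 7.69), so none was treated as 1 library deposited more than once. The depth of 21345279 to 29091824 counts puts 3 counts at 0.104 to 0.140 CPM. Inducible and standard subunits were compared with exact permutation tests. GENCODE v29 principal transcripts gave lengths and shared windows, and RefSeq GRCh38.p14 gave promoters and gene order.

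Genes named were those with the smallest p or the highest level in each role, the cutting subunits, the activators and PSMG genes, neighbours of VPS72, genes below the filter, and the 2 with the smallest p in each other list. Other names were added for completeness. The genes and lists were chosen with earlier results of these data known. No tests on groups of genes were made. Of the immune list, 1 marker is not reported here.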

Additional observations from a re-analysis of the deposited data

How the results depend on the processing

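Proteasome genes called higher numbered 0 under the settings tried except for 1 gene, PSMB2, with DESeq2 (log2 fold change 0.14, adjusted p 0.00812) and with GC and length trends removed (0.15, 0.0143). The GC and length setting and the leaving out of genes with shared windows were added after seeing the data. No setting called a proteasome gene lower, though DESeq2 gave no adjusted p to some of them, among them PSMB10, PSMA6 and PSMD9. Over all genes, 88 calls became 264 with no filter, 254 with DESeq2, 54 with the abundance trend removed, 396 with GC and length trends removed and 32 at a threshold of 0.01. Leaving out each library gave 25 to 100. A replicate block gave 32 calls and no proteasome gene. Libraries with the same number did not deviate together (correlations -0.21 to 0.16, and 0 of 3 VPS72 libraries closest to their own number). With 3 libraries a group, this cannot settle whether the numbers pair the samples. Higher against lower calls were 60 and 28, but 32 and 54 with library totals, 44 and 32 with upper quartile scaling, 27 and 27 with the abundance trend removed, 197 and 57 with DESeq2 and 329 and 67 with GC and length trends removed. The cause was not tested.

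Of 730 alternative log2 fold changes of the 43 proteasome genes, 54 in 16 genes changed sign, and values of other named genes that did so are given with them. With library totals the reversed log2 fold changes were PSMB1 -0.0014, PSMB3 -0.0019, PSMB6 -0.029, PSMC3 -0.024, PSMD3 -0.015, PSMD4 -0.031, PSMD6 -0.022, PSMD7 -0.031, PSME4 -0.014, PSMG2 -1e-04 and NFE2L1 -0.0047. With upper quartile scaling there were PSMB6 -0.0019, PSMD4 -0.0033 and PSMD7 -0.0042. With a stricter filter there were PSMB6 -0.0011, PSMD4 -0.0029 and PSMD7 -0.0032. With the abundance trend removed there were PSMB6 -0.0038, PSMD4 -0.0086, PSMD7 -0.0033, PSME4 -0.013 and TAP1 0.0025. With the replicate block there were PSMC3 -0.0055, PSMD4 -3e-04 and PSMD7 -5e-04. With limma-voom there was PSMD7 -0.0066. With GC and length trends removed there were PSMA5 0.0063, PSMD1 0.0037 and PSMF1 0.0059. Leaving out each library gave ranges that cross 0 for PSMA1 (-0.087 to 0.067), PSMA5 (-0.070 to 0.032), PSMB3 (-0.034 to 0.11), PSMB6 (-0.0072 to 0.015), PSMC1 (-0.12 to 0.052), PSMC3 (-0.077 to 0.15), PSMD1 (-0.034 to 6e-04), PSMD3 (-0.021 to 0.092), PSMD4 (-0.033 to 0.031). The same held for PSMD6 (-0.021 to 0.066), PSMD7 (-0.040 to 0.056), PSMG2 (-0.013 to 0.082), PSMG3 (-0.088 to 0.0098), PSMG4 (-0.028 to 0.15), TAP1 (-0.36 to 0.21), PSMF1 (-0.030 to 0.0088), ADRM1 (-0.17 to 0.030) and RPS27A (-0.0069 to 0.092). Depth limits PSMB8, PSMB9 and PSMB11, which had 4 counts or fewer in every library, and PSMB10, whose 21 to 48 counts leave a wide interval.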
